A study of Mus musculus with 21 samples.

Results

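The genes described here encode the proteins that license replication origins and the clamp that follows: the helicase subunits Mcm2, Mcm3, Mcm4, Mcm5, Mcm6 and Mcm7, the loading factors Cdc6 and Cdt1, the Cdt1 inhibitor Gmnn (geminin), and Pcna. These 10 genes were chosen by name, and a probe was taken as theirs when its RefSeq accession mapped to the symbol. All 10 were found, on 11 of 41174 probes, since Cdc6 had 2 and each of the others 1. The brightest probe of a gene was followed, and all 10 genes were among the 14315 genes tested, of 18217 with a symbol. Transcript levels were measured on 1-colour arrays in 7 sorted fractions of C57BL/6 mouse bone marrow, with 3 arrays a fraction and 21 in all. KLS cells (lin- ckit+ sca1+) are the multipotent starting point. On the erythroid side PreMegE cells were labelled CD150+ CD105- and negative for Fc gamma receptors, CFUe cells CD150- CD105- and negative for these receptors, and Ter119 cells CD71+ Ter119+. On the myeloid side PreGM cells carried the same marker description as CFUe, GMP cells were CD150- and positive for Fc gamma receptors, and Mac1Gr1 cells were Mac1+ Gr1+. The labels give every intermediate fraction as lin- ckit+ sca1+, name no age, sex, genotype change or treatment, and do not say whether replicates came from separate animals, so the p-values measure the spread between these samples, which may be technical. Groups follow the sample titles.

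A cell may copy each stretch of its genome only once per division, and licensing is how it keeps count. In late mitosis and G1, the origin recognition complex (ORC), Cdc6 and Cdt1 load the ring formed by Mcm2 to Mcm7 onto DNA as an inactive double hexamer. At the start of S phase the ring is activated and unwinds DNA as the replicative helicase, while geminin binds Cdt1 and Cdt1 is destroyed on chromatin-bound Pcna, so that no origin is loaded again. E2F factors, held in check by RB proteins, drive transcription of most of these genes as cells enter the cycle. In the marrow, early erythroid progenitors divide rapidly before they condense their nuclei, and maturing granulocytes leave the cycle.

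Promoter sequence was available for 8 of the 10 genes, in 9 windows of 300 bases (250 before to 50 after the start site, RefSeq, build GRCm38.p6), and none was printed for Mcm4 or Gmnn. A match to TTTGGCGC, TTTCGCGC, TTTCCCGC or TTTGCCGC on either strand, the core of E2F sites, was present in 6 of the 9 windows, belonging to Mcm3, Mcm5, Mcm6, Mcm7, Cdc6 and Cdt1, against 2.27% of 32851 windows of this length. The windows of Mcm2 and Pcna held none of these letters. The CCAAT box was present in 7 of the 9 windows, against 37.4% of all windows, and the cell cycle element TTTGAA in 1, that of Mcm2, against 17.9%. A match is a description and not a site shown to be bound. The 250 bases before the start site are given 5′ to 3′ for Mcm6 (chr1:128359706-128359955, minus strand), Mcm5 (chr8:75109259-75109508, plus strand), Cdc6 (chr11:98907901-98908150, plus strand) and Pcna (chr2:132253181-132253430, minus strand). Mcm6 is shown because it had the most matches, Mcm5 and Cdc6 because they were called higher in CFUe below, and Pcna as a member of the same pattern without a match. Capitals mark the E2F matches.
Mcm6: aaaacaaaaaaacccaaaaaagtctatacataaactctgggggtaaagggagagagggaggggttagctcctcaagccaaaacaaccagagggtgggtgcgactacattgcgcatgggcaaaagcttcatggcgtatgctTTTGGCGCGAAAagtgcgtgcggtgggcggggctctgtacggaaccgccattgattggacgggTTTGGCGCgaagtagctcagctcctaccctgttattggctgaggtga
Mcm5: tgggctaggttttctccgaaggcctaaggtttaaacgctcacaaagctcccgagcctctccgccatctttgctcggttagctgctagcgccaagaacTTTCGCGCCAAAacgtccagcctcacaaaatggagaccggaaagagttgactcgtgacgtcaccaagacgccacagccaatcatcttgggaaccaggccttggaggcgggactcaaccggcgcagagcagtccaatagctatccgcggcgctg
Cdc6: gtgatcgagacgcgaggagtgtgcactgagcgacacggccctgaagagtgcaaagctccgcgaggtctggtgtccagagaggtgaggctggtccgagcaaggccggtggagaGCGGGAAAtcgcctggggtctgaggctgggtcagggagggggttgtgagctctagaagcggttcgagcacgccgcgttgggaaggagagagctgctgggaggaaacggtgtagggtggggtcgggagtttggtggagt
Pcna: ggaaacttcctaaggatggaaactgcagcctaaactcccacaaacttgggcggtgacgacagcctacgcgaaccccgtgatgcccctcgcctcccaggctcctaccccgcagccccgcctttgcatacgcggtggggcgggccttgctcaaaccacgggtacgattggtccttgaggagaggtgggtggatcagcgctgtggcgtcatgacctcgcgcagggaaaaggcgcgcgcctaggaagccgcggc
In Mcm6, matches began at positions -110, -106 and -47 from the start site, the first pair overlapping in 1 run of capitals. In Mcm5, a pair at -153 and -149 overlapped in the same way, and in Cdc6 the single match began at -138. The matches of Mcm3 lay after the start site, at 20 and 39, and that of Cdt1 at 33.

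Between 56.2% and 77.4% of probes were well above background on an array. All 10 genes were well above background on every array, with the exception of the Mcm2 spot of CFUe replicate 1, an outlier spot that was left out, so that Mcm2 has n = 2 in CFUe. Values are log2 signal minus the 75th percentile of the array, so 0 is the level of a probe at that percentile, and a level of 1 probe is not comparable with that of another. Epor, the erythropoietin receptor, had a mean log2 level of 5.17 in CFUe and -0.48 in PreGM, although both carry the same marker description. Eng, which encodes CD105, was at 2.47 in CFUe, 2.07 in KLS, 2.15 in PreMegE and 1.68 in PreGM. Ly6a, which encodes Sca1, was at 2.57 in KLS and 2.10 in GMP. It was at -3.14 in PreMegE, -0.31 in PreGM and -5.81 in CFUe, where 1 of 3 arrays was well above background. The sca1+ label of these fractions was thus not matched by a Ly6a level like that of KLS in PreMegE, CFUe or PreGM. Ter119 arrays also carried transcripts of other cells. The 11 granulocytic markers, all well above background there, had a summed log2 level of 12.2 to 12.5 in Ter119, 12.4 to 12.5 in Mac1Gr1 and 2.43 to 5.37 in CFUe. The 7 B cell markers summed to 6.80 to 7.32 in Ter119, 4.66 to 5.50 in Mac1Gr1 and -0.88 to 1.32 in CFUe. The 7 macrophage markers measured, of 8, were well above background on all KLS arrays and summed to 4.26 to 5.76 there, -1.97 to -1.43 in CFUe, 3.05 to 3.15 in Ter119 and 3.96 to 4.18 in Mac1Gr1. The part of these transcripts in the results below was not tested. The level of X-linked Xist exceeded the mean of the Y-linked transcripts on all arrays of GMP and Mac1Gr1 and on 2 arrays each of CFUe and PreGM, and the reverse held on all arrays of KLS, PreMegE and Ter119. A fraction is a mixture, and fewer cells with a transcript and less of it per cell cannot be told apart.

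The MCM subunits, which form the ring, shared 1 profile. With scaling to the 75th percentile, means were highest in CFUe (not for Mcm3 and Mcm6 under quantile scaling, and for all in GMP under spike-in scaling), lower in KLS, PreMegE, PreGM and GMP, lower again in Ter119 and lowest in Mac1Gr1. Mcm3 measured 2.39, 2.49 and 2.53 on the KLS arrays and 2.22, 2.36 and 2.52 in PreMegE, then 3.22, 2.99 and 2.97 in CFUe and 0.09, 0.51 and 0.77 in Ter119. In the myeloid fractions it measured 2.67, 2.60 and 2.90 in PreGM and 2.93, 3.15 and 2.99 in GMP, then -1.65, -1.56 and -1.91 in Mac1Gr1. The CFUe and GMP arrays overlapped for Mcm3, whereas both mature fractions lay below every progenitor array. Mcm2 measured 3.33, 3.17 and 3.07 in KLS and 3.69, 3.48 and 3.56 in PreMegE, then 4.42 and 4.52 in CFUe and 2.07, 2.13 and 2.66 in Ter119. It measured 3.46, 3.59 and 3.84 in PreGM and 3.47, 3.52 and 3.69 in GMP, then -0.51, -0.58 and -0.57 in Mac1Gr1. Both CFUe values of Mcm2 lay above all other arrays. Mcm6 measured 6.29, 6.31 and 6.68 in KLS and 6.61, 6.88 and 6.63 in PreMegE, then 6.95, 7.04 and 7.20 in CFUe and 4.91, 5.27 and 5.24 in Ter119. It measured 6.97, 6.76 and 7.08 in PreGM and 6.93, 6.99 and 6.76 in GMP, then 2.62, 2.91 and 2.81 in Mac1Gr1. The arrays of CFUe, PreGM and GMP overlapped for Mcm6.

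The remaining subunits followed the same order. Mcm4 measured 4.61 ± 0.11 in KLS and 4.74 ± 0.13 in PreMegE, then 5.55 ± 0.12 in CFUe and 3.71 ± 0.22 in Ter119, with 5.02 ± 0.12 in PreGM, 5.11 ± 0.10 in GMP and finally 1.96 ± 0.15 in Mac1Gr1 (mean log2 level ± SD, n = 3). Mcm5 measured 4.27 ± 0.18, 4.49 ± 0.04, 5.53 ± 0.09, 3.50 ± 0.29, 5.01 ± 0.11, 5.14 ± 0.06 and 1.27 ± 0.20 in the same order, and Mcm7 5.34 ± 0.26, 5.44 ± 0.13, 6.24 ± 0.14, 4.44 ± 0.20, 5.82 ± 0.07, 5.84 ± 0.14 and 2.08 ± 0.34. The SD of the members was widest in Ter119, from 0.20 to 0.47 with a median of 0.30, against a median of 0.13 in CFUe.

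Cdc6, the ATPase that brings Cdt1 and the MCM ring to ORC, was the member that rose most into CFUe. It measured 0.22, 0.43 and 0.41 in KLS and 0.04, 0.35 and 0.42 in PreMegE, then 2.21, 2.02 and 2.40 in CFUe and 0.03, 0.58 and 0.85 in Ter119. In the myeloid fractions it measured 0.44, 0.37 and 0.88 in PreGM and 1.27, 1.15 and 1.12 in GMP, then -2.80, -2.78 and -2.50 in Mac1Gr1. The CFUe arrays stood clear of all others, GMP came next, and the arrays of KLS, PreMegE, Ter119 and PreGM overlapped. A dimmer Cdc6 probe had means of -0.52 in KLS and -0.56 in PreMegE, then 1.17 in CFUe and -0.70 in Ter119, with -0.47 in PreGM, -0.50 in GMP and finally -4.10 in Mac1Gr1. Both probes peaked in CFUe, but the dimmer probe showed no second peak in GMP.

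Cdt1, which carries the MCM ring to the origin, measured 4.57, 4.42 and 4.69 in KLS and 4.52, 4.65 and 4.39 in PreMegE, then 5.85, 5.98 and 6.11 in CFUe and 3.61, 4.04 and 4.20 in Ter119. It measured 5.11, 5.11 and 5.38 in PreGM and 5.08, 5.19 and 5.24 in GMP, then 1.60, 1.99 and 2.02 in Mac1Gr1. The fractions fell into steps for Cdt1, with CFUe on top, PreGM and GMP together below it, and KLS and PreMegE together below those. Gmnn, whose product blocks Cdt1, measured 3.76, 3.72 and 4.14 in KLS and 3.92, 4.22 and 3.99 in PreMegE, then 5.46, 5.62 and 5.61 in CFUe and 3.35, 4.17 and 4.13 in Ter119. It measured 4.37, 4.35 and 4.64 in PreGM and 4.94, 4.99 and 4.82 in GMP, then 1.63, 2.08 and 2.07 in Mac1Gr1. Unlike the MCM genes, Gmnn had Ter119 arrays that overlapped those of KLS and PreMegE. Pcna, the ring that tethers DNA polymerases and recruits the machinery that destroys Cdt1, measured 5.23, 5.36 and 5.33 in KLS and 4.98, 5.21 and 5.25 in PreMegE, then 5.86, 5.88 and 6.09 in CFUe and 4.45, 4.81 and 5.05 in Ter119. It measured 5.31, 5.27 and 5.43 in PreGM and 5.71, 5.59 and 5.45 in GMP, then 2.40, 2.60 and 2.47 in Mac1Gr1. All CFUe arrays of Pcna lay above those of the other fractions, and its Ter119 arrays reached into the range of PreMegE.

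**Figure D1:**
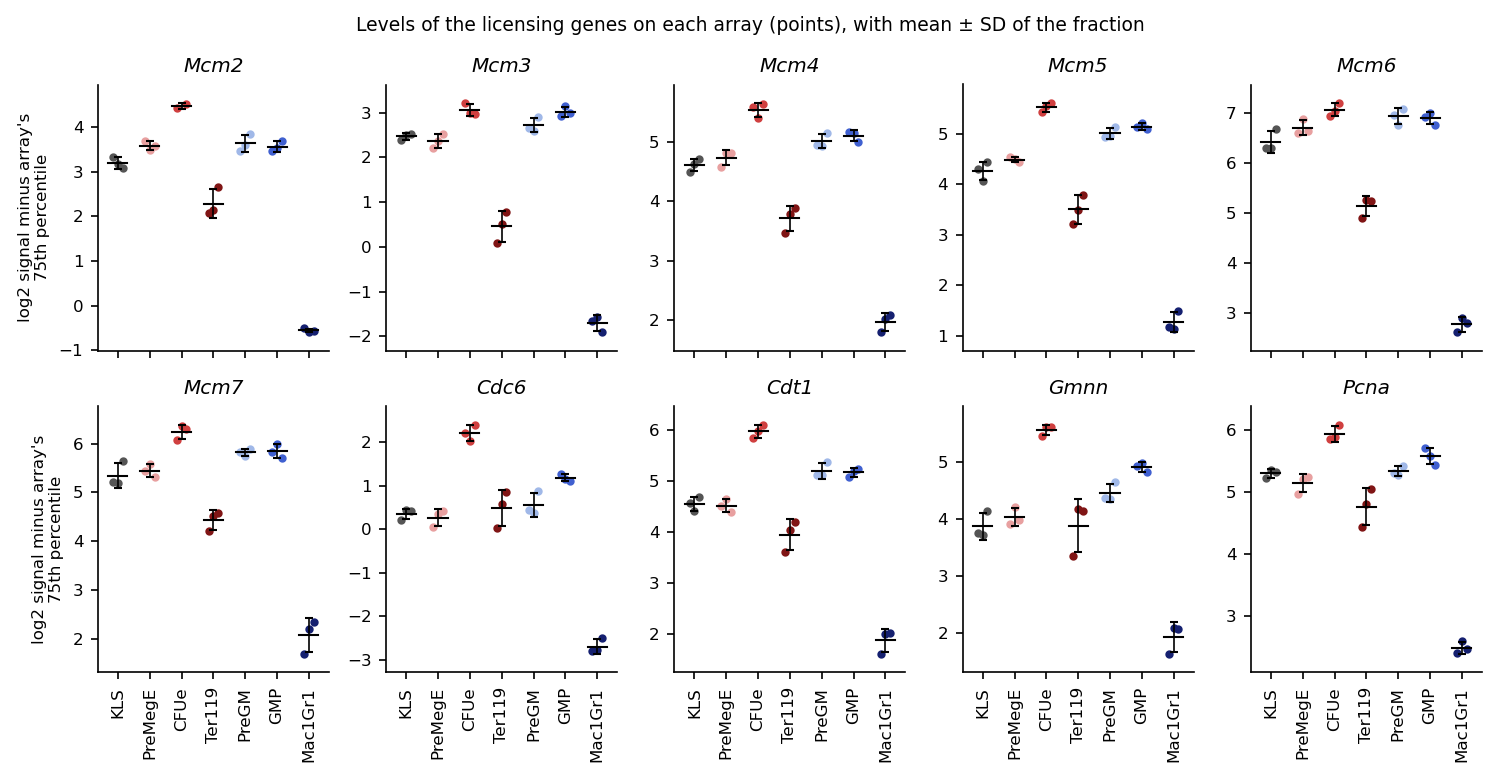
Levels of the 10 licensing genes on each array, with 1 panel per gene. The horizontal axis gives the fraction (KLS in grey, the erythroid side in reds, the myeloid side in blues) and the vertical axis the log2 signal minus the 75th percentile of the array. Points are arrays, and bars are the mean ± SD of 3 arrays (2 for Mcm2 in CFUe). The mean of Mac1Gr1 is lowest in every panel and that of CFUe highest, which spike-in scaling turns to GMP, and the mean of Ter119 is second lowest in every panel other than Cdc6 and Gmnn.

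With this scaling, CFUe had the highest mean and Mac1Gr1 the lowest for all 10 genes, but under quantile scaling Mcm3 and Mcm6 were higher in GMP than in CFUe (by 0.12 and 0.21) and Pcna and Mcm6 higher in KLS (by 0.10 and 0.15), and under spike-in scaling all 10 were higher in GMP. The gap between CFUe and the fraction next below it had an adjusted p of 0.86 for Mcm3, 0.47 for Mcm6 and 0.0541 for Mcm7, and was past the threshold of 0.05 for the others, from 0.36 (Pcna, adjusted p = 0.0327) to 1.03 (Cdc6, adjusted p = 1.98e-04). Between neighbours in the middle of the order, gaps past the threshold were few. They were PreGM over PreMegE for Mcm5 (0.52, adjusted p = 0.0102), GMP over PreGM for Cdc6 (0.62, adjusted p = 0.022), GMP over KLS for Cdt1 (0.61, adjusted p = 0.00332) and GMP over KLS for Mcm2 (0.37, adjusted p = 0.0486). At the bottom, Mac1Gr1 lay 1.75 (Mcm4) to 2.96 (Cdc6) below the next lowest fraction, with adjusted p values between 1.58e-10 and 8.24e-08. An F-test over all 7 fractions gave adjusted p values from 7.10e-14 (Mcm3) to 4.20e-10 (Gmnn). All adjusted p values given here and below are limma's, adjusted by Benjamini-Hochberg over 29532 probes.

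In the first steps away from KLS no licensing gene changed by 2-fold. A gene is called here when its adjusted p was under 0.05 and the difference at least 2-fold. From KLS to PreMegE none of the 10 was called, where 12.4% of all probes were, and the changes ran from -0.16 (Pcna) to 0.39 (Mcm2, adjusted p = 0.0625). At an unadjusted p under 0.05, 1 of the 10 passed, and under spike-in scaling all 10 lay below 0, from -0.62 to -0.07, beside a median of all probes of -0.33. From KLS to PreGM none was called either, against 8.64% of all probes, but 7 of the 10 were higher at an adjusted p under 0.05, against 14.0% of probes. The largest of these were Mcm5 (0.74 ± 0.14, SE, adjusted p = 0.00103) and Cdt1 (0.64 ± 0.15, adjusted p = 0.00554). Mcm3, Cdc6 and Pcna did not pass, at 0.25, 0.21 and 0.03. Under spike-in scaling only Mcm5 (0.12) and Cdt1 (0.03) stayed above 0, beside a median of all probes of -0.56, and under quantile scaling Pcna was at -0.29. All 7 macrophage markers were called lower than in KLS in both PreMegE (median -6.31) and PreGM (median -6.59). In that order, 2617 and 1928 of 29532 probes were called lower. The part of these markers was not tested. Compared directly, PreMegE and PreGM gave no call, against 12.0% of probes, and all 10 genes were lower in PreMegE, by 0.05 (Mcm2) to 0.68 (Cdt1). Cdt1 (adjusted p = 0.00276) and Mcm5 (adjusted p = 0.0102) passed at any fold, against 13.2% of probes that were lower. The sign of the small Mcm2 difference was turned under quantile and spike-in scaling, to 0.03 and 0.10.

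The second steps differed between the lineages. From PreMegE to CFUe, Cdc6 rose 3.84-fold (log2 1.94 ± 0.19, SE, adjusted p = 2.30e-07), Gmnn 2.88-fold (1.53 ± 0.19, adjusted p = 5.17e-06), Cdt1 2.75-fold (1.46 ± 0.15, adjusted p = 5.73e-07) and Mcm5 2.05-fold (1.03 ± 0.14, adjusted p = 9.33e-06). These were 4 of 10 called higher, against 9.96% of all probes. The other 6 were higher by 0.35 (Mcm6) to 0.89 (Mcm2), and all 10 passed at any fold, against 27.3% of probes. The arrays did not overlap for any of the 10, a count whose share over all probes was not computed. Under quantile scaling Cdc6 (1.74) and Gmnn (1.07) stayed called, Cdt1 (0.95) and Mcm5 (0.51) did not, and Mcm6 was at -0.18 (-0.16 under spike-in scaling). On the only slide that held both fractions, all 10 were higher in CFUe, with a median of 0.91. From PreGM to GMP none was called, against 10.4% of probes, and only Cdc6 passed at any fold (0.62 ± 0.19, adjusted p = 0.022), against 12.6% of probes that were higher. The dimmer Cdc6 probe was at -0.03 there. The other changes ran from -0.07 (Mcm2) to 0.46 (Gmnn), and spike-in scaling raised all 10, of which 7 were then called. On that scale 14013 of 29532 probes were called higher, and the median of all probes was 0.99.

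Tested directly, the second step differed by lineage for 3 genes. The change from PreMegE to CFUe exceeded that from PreGM to GMP by 1.49 ± 0.22 for Cdt1 (SE, adjusted p = 4.68e-05), 1.32 ± 0.27 for Cdc6 (adjusted p = 9.30e-04) and 1.06 ± 0.28 for Gmnn (adjusted p = 0.00625). That is 3 of 10 called, against 8.38% of all probes, and 8 of 10 passed at any fold, against 18.2%, with Mcm3 (0.39) and Mcm6 (0.40) the exceptions. Under spike-in scaling the sign of all 10 was turned, with a median of -0.73 beside a median of all probes of -1.39, a shift that this scaling gives to all probes, and under quantile scaling Mcm6 was at -0.06. Gmnn lost its call under quantile scaling (0.72), in the authors' normalized table (0.76) and without PreGM replicate 3 (0.97).

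Against KLS, CFUe had 5 of 10 called higher, against 17.2% of probes: Cdc6 (3.61-fold), Gmnn (3.24-fold), Cdt1 (2.68-fold), Mcm2 (2.42-fold) and Mcm5 (2.39-fold). All 10 passed at any fold, against 36.4% of probes. All 7 macrophage markers were called lower in CFUe than in KLS (median -7.57) and 5 of 7 in GMP (median -4.49). In that order, 5628 and 4043 of 29532 probes were called lower. The part of these markers in the differences was not tested. Quantile scaling left Cdc6 (1.61) and Gmnn (1.04) called, where 5315 of 29532 probes were called higher, and put Mcm6 (-0.15) and Pcna (-0.10) below 0. Spike-in scaling left none called, with 5 of 10 below 0. On the slide shared by both fractions all 10 were higher in CFUe replicate 3, with a median of 1.17. That replicate was also the only CFUe array with the sex-chromosome pattern of KLS. Against the 3 KLS arrays it had all 10 higher, with a median of 1.18. Both values rest on this 1 CFUe array and are not independent. GMP against KLS had 1 call, Gmnn (2.06-fold, adjusted p = 2.88e-04), against 8.0% of probes, and 9 of 10 passed at any fold, against 24.8%, the exception being Pcna (0.27, adjusted p = 0.112). Gmnn lost its call without KLS replicate 1 (0.99) or replicate 2 (0.97) and under quantile scaling (0.64), where Mcm2 (-0.01) and Pcna (-0.22) were below 0. KLS and GMP differed in their sex-chromosome transcripts on every array. With that pattern as a block, estimated through the mixed arrays of CFUe and PreGM, 3 genes were called, Gmnn (1.22), Cdc6 (1.20) and Mcm5 (1.03), and 8 of 10 passed at any fold. The share of all probes called with this block is not given here, so these counts cannot be read against it. Directly compared, CFUe exceeded GMP in 1 call, Cdc6 (2.04-fold, adjusted p = 1.98e-04), against 12.1% of probes, with 7 of 10 past the threshold at any fold, against 32.2%. Without CFUe replicate 3 or GMP replicate 3, Cdc6 was at 0.93 and 0.998 and not called, and under quantile scaling at 0.87. The dimmer Cdc6 probe gave 1.66, while spike-in scaling turned the sign for all 10 genes, with a median of -0.96 beside a median of all probes of -1.15.

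At the terminal erythroid step all 10 genes fell, against 28.0% of all probes. From CFUe to Ter119 the decrease was 6.07-fold for Mcm3 (log2 -2.60 ± 0.16, SE, adjusted p = 9.96e-11), 4.54-fold for Mcm2, 4.07-fold for Mcm5, 3.80-fold for Mcm6, 3.56-fold for Mcm4 and 3.50-fold for Mcm7. Cdt1 fell 4.09-fold, Cdc6 3.31-fold and Gmnn 3.21-fold, and Pcna the least, 2.26-fold (-1.18 ± 0.14, adjusted p = 5.09e-07). No array of Ter119 overlapped CFUe for any of the 10, a count whose share over all probes was not computed. At an adjusted p under 0.05 and any fold, 11370 of 29532 probes were lower in Ter119 and 11129 higher. Pcna lost its call under quantile scaling (-0.76) and in the authors' normalized table (-0.80). On the slide shared by both fractions none of the 9 genes measured was higher in Ter119, with a median of -1.63. Ter119 arrays carried granulocytic and B cell transcripts, as given above, and their share in these levels was not tested.

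After the erythroid fall the genes stood at different places relative to KLS. In Ter119 against KLS, Mcm3 (-2.01 ± 0.16, SE, adjusted p = 5.15e-09) and Mcm6 (-1.29 ± 0.14, adjusted p = 4.32e-07) were called lower, 2 of 10 against 24.4% of all probes. Mcm7, Mcm2, Mcm4 and Mcm5 lay between -0.91 and -0.77, Cdt1 at -0.61 and Pcna at -0.54, with adjusted p values from 6.94e-06 to 0.00197. Gmnn was at 0.01 ± 0.19 (adjusted p = 0.956) and Cdc6 at 0.13 ± 0.19 (adjusted p = 0.559), with Ter119 arrays that overlapped those of KLS. Under quantile scaling Mcm4 (-1.13) and Mcm7 (-1.20) were called as well, 4 of 10 in all, with Gmnn at -0.15 and Cdc6 at 0.18, and under spike-in scaling all 10 were called lower, from -4.37 (Mcm3) to -2.23 (Cdc6). The share of all probes called was not computed under these other scalings.

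Of the 6 steps, the terminal myeloid one held the largest change of each of the 10 genes. From GMP to Mac1Gr1 all 10 fell, against 27.6% of probes, by 26.4-fold for Mcm3 (log2 -4.72 ± 0.16, SE, adjusted p = 7.02e-14), 17.3-fold for both Mcm2 and Mcm6, 14.7-fold for Mcm5, 13.6-fold for Mcm7 and 8.88-fold for Mcm4. Cdc6 fell 14.7-fold, Cdt1 9.84-fold, Pcna 8.52-fold and Gmnn 7.95-fold (-2.99 ± 0.19, adjusted p = 2.85e-10). All arrays of both fractions had the same sex-chromosome pattern, and no slide held both. Mcm3 had the largest fall of the 10 at both terminal steps.

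The terminal fall was deeper in the myeloid lineage for every gene. The erythroid change minus the myeloid change was positive and called for all 10, against 20.9% of all probes, from 1.27 ± 0.22 for Cdt1 (SE, adjusted p = 1.01e-04) to 2.18 ± 0.20 for Mcm6 (adjusted p = 1.22e-07). Ter119 exceeded Mac1Gr1 for all 10 genes, against 22.0% of probes, by 3.37-fold (Mcm4) to 9.06-fold (Cdc6). These calls held for all 10 under quantile and spike-in scaling, and the Ter119 over Mac1Gr1 difference ran from 1.98 to 3.29 under the former and from 1.03 to 2.46 under the latter. In the same order, 5678 and 3031 of 29532 probes were called higher in Ter119 than in Mac1Gr1, and 5848 and 9269 in the lineage difference. No slide held Ter119 and Mac1Gr1 together, and their sex-chromosome transcripts differed on every array. With that pattern as a block, which the mixed arrays of CFUe and PreGM allow, all 10 stayed called in Ter119 against Mac1Gr1, from 1.58 (Mcm4) to 2.80 (Cdc6). The share of all probes called with this block is not given here. The comparisons above share arrays, since each fraction enters several of them.

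**Figure D2:**
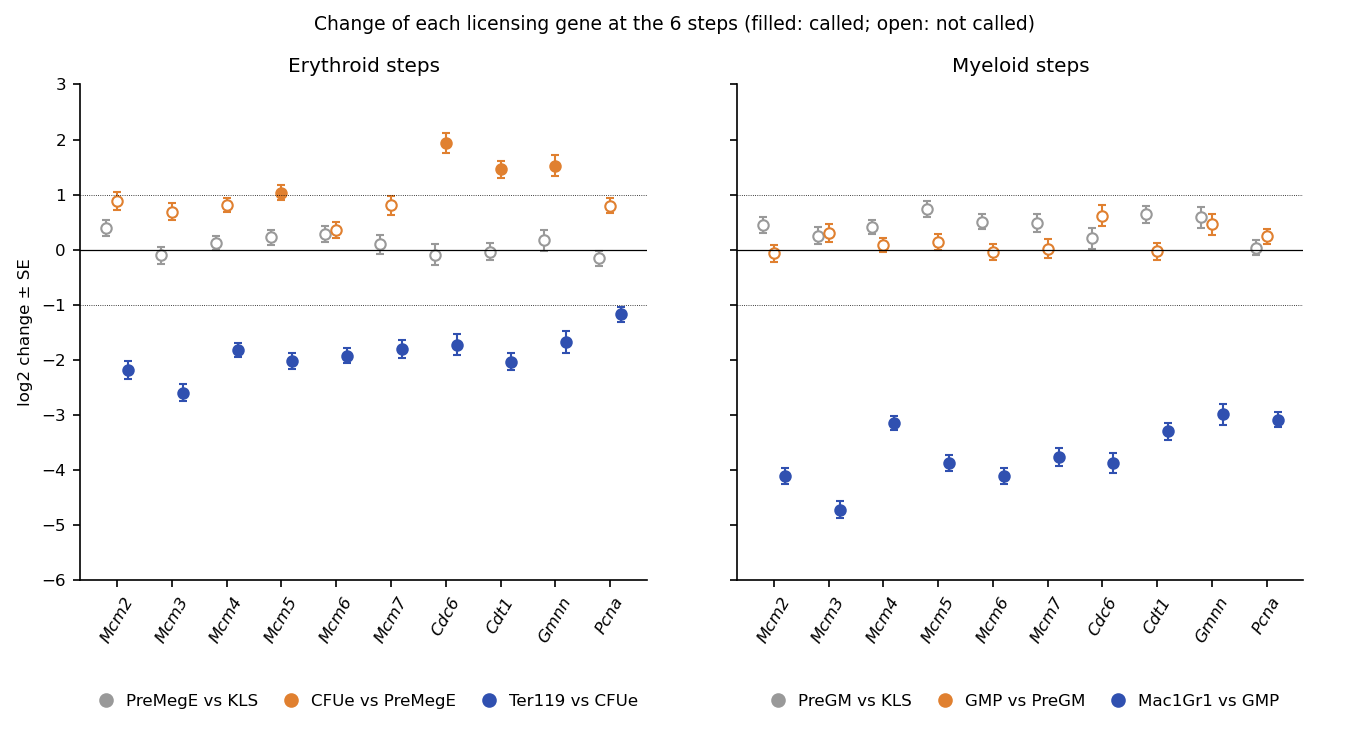
Log2 change of each licensing gene, with its standard error, at the 3 erythroid steps (left) and the 3 myeloid steps (right). Filled points were called (adjusted p under 0.05 and at least 2-fold, dotted lines), and open points were not. All 10 genes are filled and below 0 at both terminal steps, and 4 are filled above 0 from PreMegE to CFUe.

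Across the 7 fraction means, the 10 profiles were closely alike. Pearson's r between pairs of members lay between 0.880 (Cdc6 and Mcm3) and 0.997 (Mcm4 and Mcm5), with a median of 0.979 over 45 pairs, given as a description since the points share arrays and scaling and Mac1Gr1 lies far below the rest. Differences between members on the same array do not change with the scaling to a percentile or to spike-ins. The log2 level of Cdt1 minus that of Gmnn averaged 0.69 ± 0.13 (SD, n = 3) in KLS and 0.48 ± 0.11 in PreMegE, then 0.41 ± 0.07 in CFUe and 0.06 ± 0.20 in Ter119. It was 0.74 ± 0.01 in PreGM, 0.25 ± 0.14 in GMP and finally -0.05 ± 0.03 in Mac1Gr1. The difference was smaller in both mature fractions than in KLS, PreMegE, CFUe or PreGM, with no overlap between arrays. Only its change between fractions can be read, since the levels come from separate probes. The log2 level of Pcna minus the mean of Mcm3 to Mcm7 was 0.68 in KLS and 0.40 in PreMegE, then 0.46 in CFUe, 0.24 in PreGM and 0.38 in GMP, but 1.32 in Ter119 and 1.21 in Mac1Gr1. The arrays of both mature fractions lay above those of all other fractions on this measure.

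The licensing genes were set beside lists of 68 genes of neighbouring roles, of which 65 were tested. Of these 65, 46 had their highest mean in CFUe and 55 their lowest in Mac1Gr1 with scaling to the 75th percentile. The order of CFUe and GMP was not examined under the other scalings for these genes. From PreMegE to CFUe, 25 were called higher and 1 lower, against 9.96% and 14.7% of all probes. ORC, the platform for loading, had 4 of 6 subunits called higher, most of all Orc1 (1.78). Of the genes that activate the loaded ring 4 of 10 rose, led by Mcm10 (1.32), of those that synthesize DNA at the fork 6 of 18, led by the flap nuclease Fen1 (1.59), and of those that supply nucleotides 4 of 5, led by the ribonucleotide reductase subunit Rrm1 (1.53). Of the factors for Cdt1 destruction 1 of 4 rose, the ligase scaffold Cul4a (1.23). Of the E2F and RB families E2f4 (2.72) rose most and the repressor E2f7 (-1.72) fell, with 3 higher and 1 lower of 11. Mitotic genes gave 3 of 8, led by cyclin B1, Ccnb1 (1.49). From PreGM to GMP only 2 of the 65 were called, both higher, against 4.01% of probes: Cdc45 (1.095), a component of the active helicase, and the mitotic kinase Plk1 (1.22).

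At the terminal steps most of the neighbouring genes fell with the licensing genes. From CFUe to Ter119, 48 of the 65 were called lower and 3 higher, against 28.0% and 29.2% of probes. All 6 ORC genes fell, most of all Orc5 (-3.60), as did 8 of 10 activation genes (Gins2, -2.54), 16 of 18 fork genes (the polymerase delta subunit Pold2, -3.37), 3 of 4 Cdt1 turnover genes (Dtl, the adaptor that recognizes Cdt1 on Pcna, -2.62) and 4 of 5 nucleotide genes (Dut, -2.86). Mitotic genes fell in 5 of 8 (Cdk1, -1.41). Mki67 and Ccnb2 had higher means in Ter119 (6.93 and 5.23) than in CFUe (6.25 and 4.90) and were not called. From GMP to Mac1Gr1, 55 were called lower and 1 higher, against 27.6% and 29.1%: 5 of 6 ORC genes (Orc1, -4.28), all 10 activation genes (Gins1, -4.40), 17 of 18 fork genes (Pold2, -4.88), all 4 Cdt1 turnover genes (Dtl, -4.66), all 5 nucleotide genes (Dut, -4.20) and all 8 mitotic genes (Cdk1, -2.58). Orc1 was well above background on 0 of 3 Mac1Gr1 arrays (mean -5.54), so the size of its fall depends on the background level. Of the relatives of the helicase subunits, Mcm8, which acts in recombination, fell at both steps (-3.21 and -4.32), while Mcm9 and the MCM-binding protein Mcmbp were not called at either. The E2F and RB list went both ways. E2f2 was the only gene of the 65 called higher at both terminal steps, by 4.60 ± 0.16 in Ter119 and 4.72 ± 0.16 in Mac1Gr1, and E2f6, a repressor of the family, was among those that fell (-3.13 and -3.68). In Ter119 the repressor E2f7 (2.05) and Rb1 (1.09) were also called higher.

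**Figure D3:**
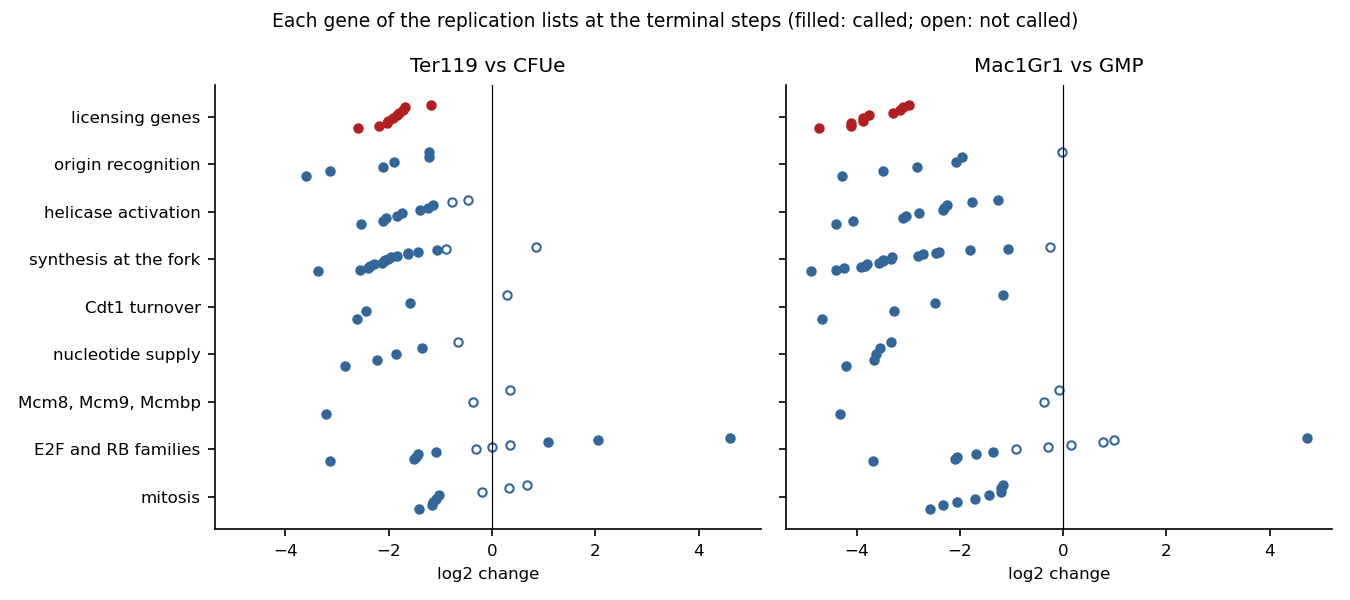
Log2 change of every tested gene of the replication lists at the terminal erythroid step (left) and the terminal myeloid step (right), 1 row per list, with the licensing genes in red. Filled points were called and open points were not. Most points lie below 0 on both sides, and the point far to the right in the row of the E2F and RB families is E2f2.

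Among 10270 genes well above background on all arrays, the profiles most like the mean of Mcm2 to Mcm7 over the 7 fraction means were those of Akip1, Chaf1a, Shmt2, Npat, Etaa1, Dscc1, Dtl and Lhpp, with Pearson's r of 0.998 for the first 5 and 0.997 for the rest. The median r over all genes compared was 0.128. Chaf1a encodes a subunit of the chromatin assembly factor that works behind the fork, Npat a coactivator of histone genes, Dscc1 a part of the loader that acts on Pcna, and Shmt2 a mitochondrial enzyme of one-carbon metabolism. For Gmnn the 3 most alike were Fen1 (0.996), Rbm14 and Samm50 (both 0.995), for Cdt1 the clamp loader subunit Rfc4 (0.996), Tmem107 and Cenph (both 0.994), and for Cdc6 Rrm1 (0.992), Lin52 (0.991) and the checkpoint mediator Clspn (0.991). These values rest on 7 points that share arrays and scaling.

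The size of the changes, and for the progenitors their sign, depended on the scaling between arrays. Spike-in scaling, which sets arrays to RNAs added in equal amounts, moved the median of all probes from 0.17 to -1.86 from GMP to Mac1Gr1, from 0.05 to -1.33 from CFUe to Ter119, from 0.23 to -0.74 in CFUe against KLS and from -0.02 to 0.99 from PreGM to GMP. On that scale the members fell by 5.02 to 6.76 from GMP to Mac1Gr1 and by 2.56 to 3.98 from CFUe to Ter119. This scaling shifts all probes of an array by the same amount, so the distance of a gene from the median of all probes is nearly fixed by construction to that with the 75th percentile, missing spots such as that of Mcm2 aside. Quantile scaling is free to change that distance. In CFUe against KLS the members' median exceeded that of all probes by 0.86 with the 75th percentile and by 0.12 with quantile scaling.

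**Figure D4:**
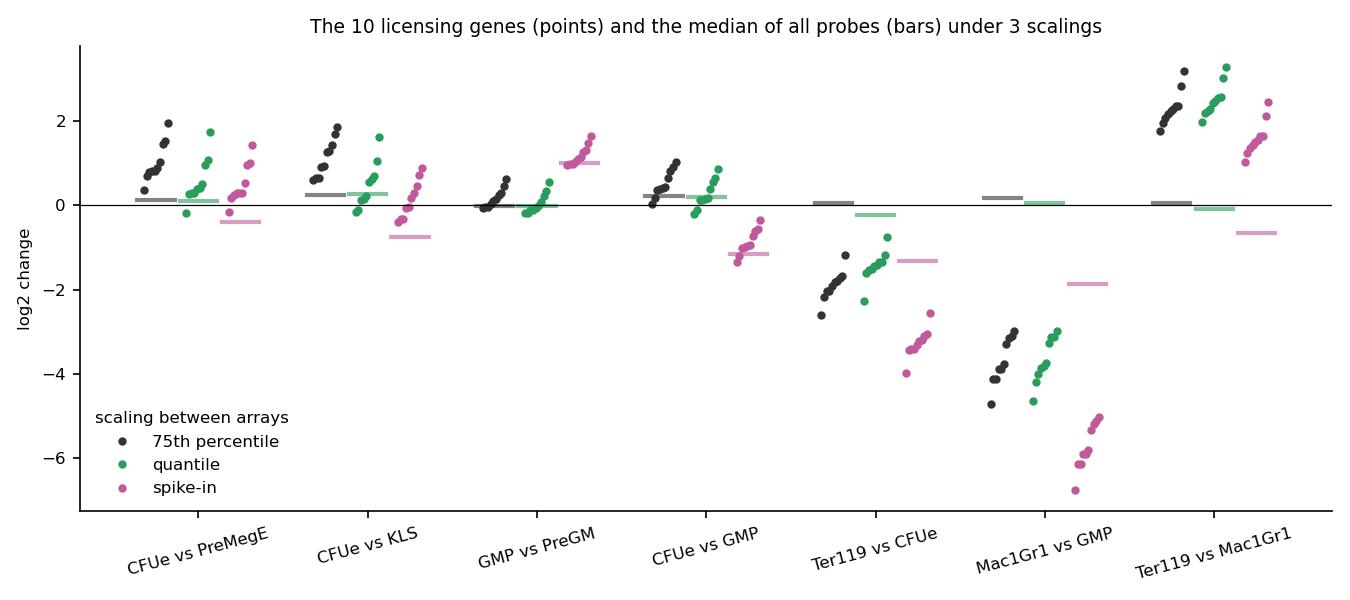
Log2 change of the 10 licensing genes (points) in 7 comparisons under scaling to the 75th percentile, quantile scaling and spike-in scaling, with the median of all probes in each as a bar. Spike-in scaling shifts points and bar together. The points lie below 0 under all 3 scalings at both terminal steps and above 0 for Ter119 vs Mac1Gr1, while for CFUe vs GMP they lie above 0 with the 75th percentile and below 0 with the spike-in.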

How the data were processed

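RNA with spike-in controls from 7 sorted fractions, 3 samples each, was hybridised to 1-colour Agilent arrays, whose number limits the precision. The scanner tables deposited by the authors hold spot intensity from Agilent Feature Extraction 10.7.1.1 (background-corrected processed signal). The authors also deposited a table of normalized log2 values, whose software is not given in the sources used here, and it was used as an alternative only. From the processed signal, the log2 value minus the 75th percentile of each array was computed, outlier spots and control spots were left out, and spots of a probe were averaged. Probes were named through RefSeq accessions (26690 of 41174 matched a symbol, 64.8%). The brightest probe of a gene was used. Rpa1, Skp2 and Rrm2 were not analysed here for want of a matched probe.

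One model over all 21 arrays was fitted with limma 3.58.1 (R 4.3.3) to 29532 probes with 14 residual degrees of freedom, with Benjamini-Hochberg adjustment over all probes within each comparison. Calls needed at least a 2-fold difference as well as an adjusted p below 0.05. All 10 licensing genes were described, and from each neighbouring list the members with the largest called change were named. The genes, lists and tests were chosen with earlier results of these data known. The fit was also tested on simulated data made for CFUe against KLS, where of 200 of 29532 probes changed by a log2 of 2, 180 (90%) were called, with 5 unchanged probes called. Alternatives were quantile and spike-in scaling (7 of 10 spike-in sequences), normexp background correction with an offset of 50, the deposited log2 table, other filters, blocks for slide (9 slides, 1 scan day), sex-chromosome transcripts and replicate number, and leaving out each sample. Tables were handled with Python 3.11.15, pandas 2.3.3 and numpy 2.4.6, and plots made with matplotlib 3.10.9.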

Additional observations from a re-analysis of the deposited data

Results flagged for a closer look

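The difference between the lineages in the same step was tested for each licensing gene, and 13 such differences were called. At the second step (PreMegE to CFUe minus PreGM to GMP) they were Cdt1 (1.49), Cdc6 (1.32) and Gmnn (1.06), all of which turned sign under spike-in scaling. At the third step (CFUe to Ter119 minus GMP to Mac1Gr1) they were Mcm6 (2.18), Cdc6 (2.15), Mcm3 (2.12), Mcm7 (1.96), Mcm2 (1.93), Pcna (1.91), Mcm5 (1.85), Mcm4 (1.32), Gmnn (1.31) and Cdt1 (1.27) on the log2 scale, positive under each of the 3 scalings.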

How the results depend on the processing

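Of 130 pairs of a licensing gene and a comparison, 54 were called, and 41 of these kept call and direction under all of their 17 to 23 alternatives, while 4 turned sign in a called value. The values that turned sign and were called before or after did so under spike-in scaling: CFUe vs GMP for Mcm3 (-1.34), Mcm6 (-1.21), Cdc6 (-0.35) and Pcna (-1.01), and the second-step difference for Mcm3 (-1.14), Mcm6 (-1.13), Cdc6 (-0.21), Cdt1 (-0.0383) and Gmnn (-0.47). Of the counts of genes called, CFUe vs PreMegE (4) became 2 under quantile scaling, spike-in scaling and the authors' table, and 10 with no minimum fold. Of 29532 probes, 2417 were called higher there under quantile and 838 under spike-in scaling. CFUe vs KLS (5) became 2, 0, 2 and 10 in the same order, with 5315 of all probes called higher under quantile and 772 under spike-in scaling. GMP vs KLS (1) became 0, 4, 0 and 9, and 3 with sex-chromosome transcripts as a block, for which the share of all probes is not given here. Spike-in scaling called 5479 of 29532 probes higher in GMP vs KLS. CFUe vs GMP (1) became 0 under quantile scaling, normexp, the authors' table and blocks for slide or sex-chromosome transcripts, 3 lower under spike-in scaling and 7 with no minimum fold. Spike-in scaling called 16941 of 29532 probes lower in CFUe vs GMP. With no minimum fold, PreGM vs KLS had 7, GMP vs PreGM 1, PreMegE vs PreGM 2 lower, and the second-step difference 8 in place of 3. The second-step difference had 2 lower under spike-in scaling, where 18789 of 29532 probes were called lower. It had 2 higher under quantile scaling, where 2056 probes were called higher, and 2 higher in the authors' table. GMP vs PreGM had 7 under spike-in scaling, where 14013 of 29532 probes were called higher. Ter119 vs KLS, whose other scalings were added after seeing the data, had 4 lower under quantile and 10 under spike-in scaling in place of 2. The share of all probes called was not computed for those. Apart from the values given, the cause was not tested. Leaving out each sample gave 2 to 4 for the second-step difference, 5 to 6 for CFUe vs KLS, 3 to 4 for CFUe vs PreMegE, 0 to 1 for CFUe vs GMP and GMP vs KLS, 10 to 10 for both terminal steps, Ter119 vs Mac1Gr1 and the third-step difference, and 0 to 0 for the others. Mcm5 lost its call in CFUe vs PreMegE without CFUe replicate 3 (0.996). With the replicate number as a block, the counts stayed at 4 for CFUe vs PreMegE, 5 for CFUe vs KLS, 1 for CFUe vs GMP and 3 for the second-step difference. Deviations of same-numbered samples had a median correlation of 0.0025 over 63 pairs, from -0.43 to 0.37. Differently numbered samples of other fractions had a median of 0.0072 over 126 pairs. Samples of other fractions on the same slide had a median of 0.117 over 15 pairs, from -0.047 to 0.40, and the main fit held no block for slide. A median cannot decide whether some samples were paired, and the labels do not say. The probes followed for the 10 genes were well above background on every array, the outlier spot of Mcm2 aside. Whether low signal, such as that of Cdc6 in Mac1Gr1 (mean -2.70), limited the size of a change was not tested.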
